A study of Rattus norvegicus with 12 samples.

Results

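Immediate early transcription factors of the AP-1, EGR and MYC families were followed across organotypic cultures of rat epidermal keratinocytes that had received betaine, ultraviolet B light (UVB), both or neither. The set was chosen by name: Fos, Fosb, Fosl1, Fosl2, Jun, Junb, Jund, Egr1, Myc and Ier3, 10 genes in all. Of these, 8 had a probe under that name among the 22523 probes (21405 different gene names) of the deposited table, with 1 probe each; Fosl1 and Fosl2 were not analysed here. The probes of 7 genes were above background on all 12 arrays and entered the tests with 10937 genes in all, while the Fosb probe was above background on 0 of 12. Each gene is therefore measured by 1 probe, and signals are compared between groups within a probe and not between genes.

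The cells were of the REK line, keratinocytes grown for 2 weeks on collagen in culture inserts, with no feeder cells, into a layered epidermis. In all 4 groups of 3 cultures each were compared: betaine + UVB, UVB (30 mJ/cm2, no betaine), betaine (10 mM, mock UVB) and control (mock UVB, no betaine). Betaine was in the medium for 11 days from day 4, UVB was given 24 h before collection, and the epidermal layer was lifted off the insert with tweezers and snap-frozen. All 4 groups come from 1 established cell line, and the betaine + UVB cultures received both treatments at these doses. No earlier collection time is among these samples, so changes in the first hours after either treatment were not measured. Nothing in the records tells whether the 3 cultures of a group were grown in independent experiments; p-values here measure the spread between these samples, which may be technical.

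Immediate early genes are switched on by signals that reach the nucleus through MAP kinases, without the need for new protein synthesis, and their transcripts and proteins usually turn over fast. Fos and Jun proteins are basic leucine zipper proteins that pair with each other to form AP-1, the best known nuclear target of growth factor and ultraviolet signalling in epidermis, where the choice of partner differs between basal and differentiating layers. EGR1 is a zinc finger factor that binds GC-rich sites and is induced by growth factors and wounding through serum response factor, MYC pairs with MAX to drive growth and ribosome production, and Ier3 encodes a small stress-induced protein that modulates survival and ERK signalling.

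The arrays detected 46 to 47.8 percent of probes each. Keratinocyte identity was clear, with 10 of the 10 measured keratinocyte markers above background on all 12 arrays, among them Krt14, Krt10 and Tp63. Of fibroblast markers 6 of 7 were undetected on every array (Col3a1 was detected on 8), and all 3 measured endothelial markers were undetected. Ptprc, the general leukocyte antigen, and Tyr, the tyrosinase of melanocytes, were undetected on every array, while 3 of 6 immune markers and 2 of 4 melanocyte markers were detected on all 12. The summed raw signal of the keratinocyte markers was 127800 to 138700 with betaine + UVB, 124800 to 130600 with UVB, 128500 to 154900 with betaine and 152600 to 153500 in control; the part of this difference in the results below was not tested. The sums are of intensities before normalization, where array medians ran from 95.9 to 118, so differences in array brightness are still in them. Krt15 alone averaged 11870 with betaine + UVB, 10850 with UVB, 17910 with betaine and 20170 in control. In bulk RNA of this kind fewer cells of a type and less transcript per cell cannot be told apart.

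Among the 7 detected factors, Egr1 and Jun passed as higher with betaine alone, and Fos, Ier3 and Myc with UVB alone. This split rests on the threshold. Fos was also 0.89 log2 units higher with betaine alone (adjusted p = 0.131 in limma), and Myc passed for betaine averaged over the UVB states. In UVB vs control 3 of 7 were higher and 0 lower at an adjusted p under 0.05 in limma, where 4.96 percent of all genes passed (2.97 percent higher, 1.98 percent lower). In betaine vs control 2 of 7 were higher and 0 lower, where 0.896 percent of all genes passed (0.366 percent higher, 0.53 percent lower). In betaine + UVB vs UVB 1 of 7 was higher and 0 lower, where 0.887 percent passed (0.494 percent higher, 0.393 percent lower). In betaine + UVB vs betaine 1 of 7 was higher and 0 lower, where 6.14 percent passed (3.87 percent higher, 2.28 percent lower). In betaine + UVB vs control 4 of 7 were higher and 0 lower, where 5.17 percent passed (2.99 percent higher, 2.18 percent lower). For the effects averaged over the other treatment, UVB raised 3 of 7 members (11.2 percent of all genes passed) and betaine raised 3 of 7 (3.25 percent passed), with 0 lower in both.

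The arrays of the compared groups did not overlap for 5 of 7 members in UVB vs control (22.9 percent of all genes), 6 in betaine vs control (14.5 percent) and 6 in betaine + UVB vs control (27.4 percent). They did not overlap for 2 of 7 in betaine + UVB vs UVB (28.6 percent) and 4 of 7 in betaine + UVB vs betaine (27.3 percent), so in the comparison of betaine + UVB with UVB the share was close to that of all genes. The median change of the 7 members was 0.36 log2 units after UVB against −0.02 for all genes, 0.28 with betaine against 0.00, and 0.66 with both against −0.00. These genes were chosen with earlier results of the same arrays known, so the counts describe the set and are not independent evidence for it. The 3 comparisons with control share the control cultures, and each is given by its own values.

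**Figure D1:**
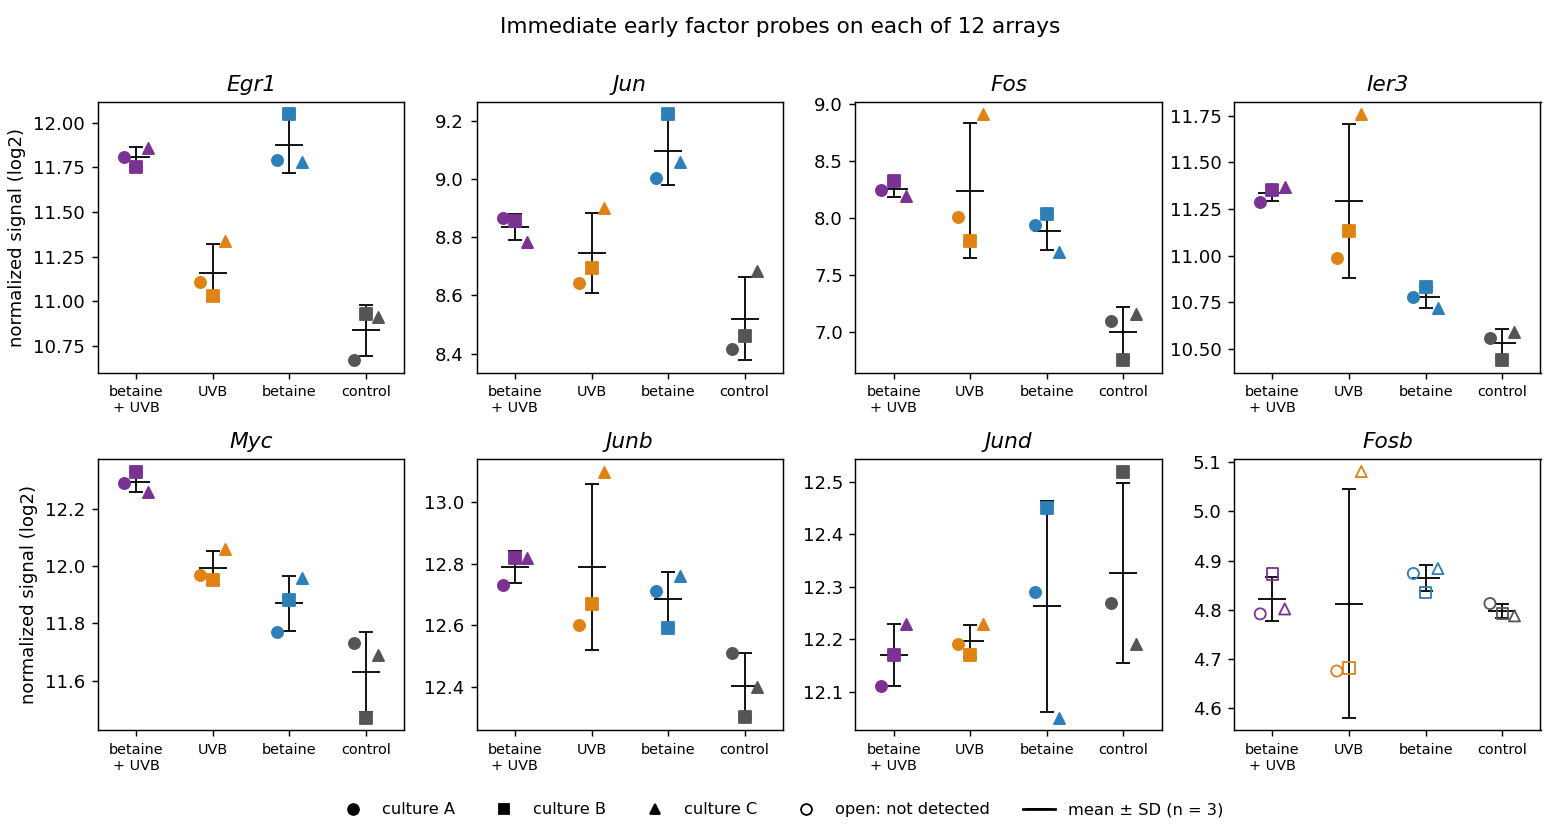
Normalized signal (log2, vertical axis) of each immediate early factor probe on the 12 arrays, by group; symbols mark cultures A, B and C, bars the mean ± SD of 3 arrays, and open symbols a probe not above background. Egr1 is high in both betaine groups, and the UVB culture C stands above A and B for Fos, Ier3 and Junb. For Egr1, Fos, Ier3, Junb and Myc every control array lies below every treated array.

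**Figure D2:**
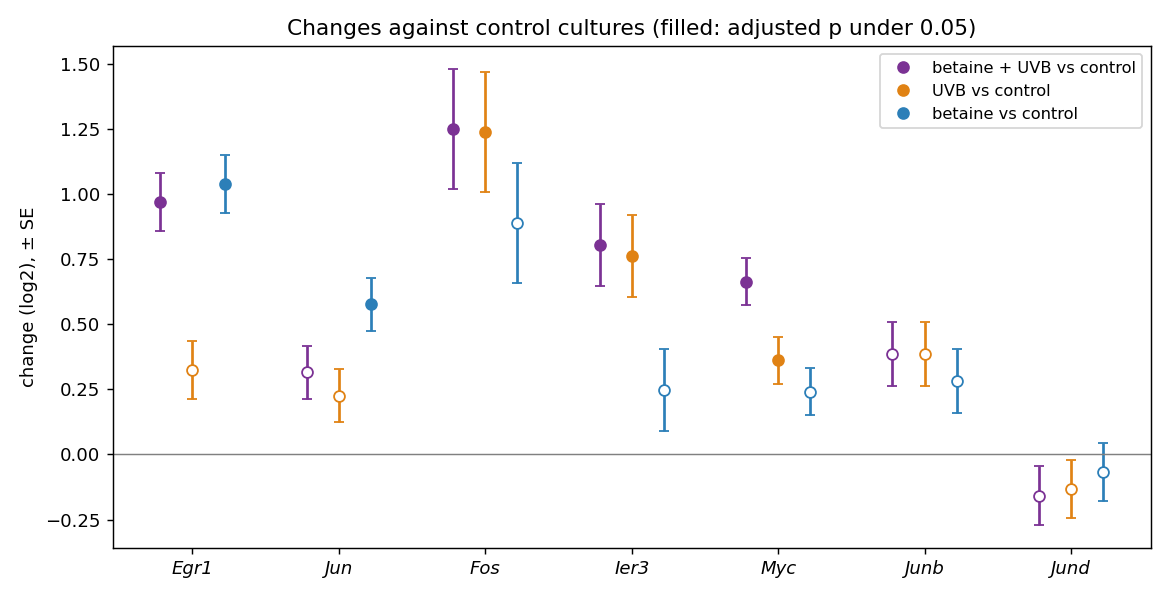
Change against control cultures (log2, vertical axis, ± SE from limma, 3 arrays per group) of the 7 detected factors for betaine + UVB, UVB and betaine; filled points have an adjusted p under 0.05. Egr1 and Jun are called with betaine and not with UVB alone, while Fos, Ier3 and Myc are called with UVB and not with betaine alone; the UVB and betaine groups were not tested against each other.

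Egr1, the zinc finger factor, had the smallest p of the 7 for betaine alone. Its normalized log2 signal was 11.81, 11.75 and 11.86 in betaine + UVB cultures, 11.79, 12.05 and 11.78 in betaine cultures, 11.11, 11.03 and 11.34 in UVB cultures and 10.67, 10.93 and 10.91 in control cultures. The 6 betaine-grown cultures thus all lay above the 6 cultures without betaine, and the betaine and the betaine + UVB cultures overlapped. Egr1 rose 2.05-fold with betaine alone (1.04 ± 0.11 log2, SE, adjusted p = 0.00166; n = 3 per group), which ranked it 6 of 10937 genes by p. Among irradiated cultures the rise with betaine was 1.56-fold (0.64 ± 0.11, adjusted p = 0.0203), and averaged over both UVB states it was 0.84 ± 0.08 (adjusted p = 2.28e-04). UVB alone gave 0.32 ± 0.11 (adjusted p = 0.143), with no overlap between the UVB and control arrays, and UVB on top of betaine −0.07 ± 0.11 (95% interval −0.31 to 0.18). Betaine + UVB cultures were 0.97 ± 0.11 above control (adjusted p = 4.98e-04).

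The call for Egr1 with betaine alone held without any 1 of the 12 arrays and missed the threshold when only the betaine and control groups were fitted (adjusted p = 0.051). The smaller call among irradiated cultures was lost without UVB A (adjusted p = 0.0800), UVB B (0.108), betaine + UVB A (0.0718), B (0.0717) or C (0.105).

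The promoters show what surrounds these start sites; those of Egr1, Junb and Jund are printed because they are the detected members with a RefSeq promoter sequence in the table used (6 of the 10 genes had one). Each runs from 250 bases before to 50 after the annotated start on GRCr8, 5′ to 3′ on the strand of the gene. Capitals mark matches on either strand to the CArG box (the serum response factor site), the cyclic AMP response element TGACGTCA, the AP-1 site TGANTCA, the EGR site GCGNGGGCG, the E-box CACGTG bound by MYC and MAX, and the TATA box TATAAA; none of these motifs overlapped another in the 3 sequences.
Egr1, chr18:26736828-26737127, + strand: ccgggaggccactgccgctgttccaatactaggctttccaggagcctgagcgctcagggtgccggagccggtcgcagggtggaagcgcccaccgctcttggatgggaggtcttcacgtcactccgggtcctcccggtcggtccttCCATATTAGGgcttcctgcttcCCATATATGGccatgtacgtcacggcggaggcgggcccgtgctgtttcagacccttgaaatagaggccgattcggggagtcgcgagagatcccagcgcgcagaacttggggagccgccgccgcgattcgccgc
Junb, chr19:40080876-40081175, + strand: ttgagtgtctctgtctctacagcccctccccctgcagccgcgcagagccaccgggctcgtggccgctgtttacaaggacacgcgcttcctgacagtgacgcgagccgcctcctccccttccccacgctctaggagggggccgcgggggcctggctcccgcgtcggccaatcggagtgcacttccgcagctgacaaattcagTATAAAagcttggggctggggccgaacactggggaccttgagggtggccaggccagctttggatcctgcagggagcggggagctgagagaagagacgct
Jund, chr16:18769722-18770021, − strand: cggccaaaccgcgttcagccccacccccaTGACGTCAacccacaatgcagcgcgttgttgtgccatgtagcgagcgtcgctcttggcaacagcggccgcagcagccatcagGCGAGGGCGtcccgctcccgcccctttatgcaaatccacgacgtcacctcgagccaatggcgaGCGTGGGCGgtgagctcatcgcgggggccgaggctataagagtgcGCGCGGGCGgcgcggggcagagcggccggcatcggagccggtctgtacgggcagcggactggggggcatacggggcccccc

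The Egr1 promoter held 2 CArG boxes, CCATATTAGG at −105 to −96 and CCATATATGG at −83 to −74 from the start, a motif found in 1.64 percent of 33469 rat promoter windows of the same length. Jund held 3 EGR sites (at −139, −76 and −31; 4.98 percent of windows hold the motif) and 1 cyclic AMP response element at −221 (1.83 percent), and Junb a TATA box at −49 (14.2 percent). None of the 3 windows had an AP-1 site or an E-box as spelled here, which occur in 7.33 and 6.42 percent of windows. These are matches of letters in a short window, and the arrays do not measure binding.

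Jun, the main transactivating partner in AP-1, was the other member that passed with betaine alone. Its log2 signal was 8.87, 8.86 and 8.78 with betaine + UVB, 9.004, 9.22 and 9.06 with betaine, 8.64, 8.69 and 8.90 with UVB and 8.42, 8.46 and 8.68 in control. The 3 cultures with betaine alone were the highest of the 12, and the UVB arrays overlapped both the betaine + UVB and the control arrays. Jun rose 1.49-fold with betaine alone (0.58 ± 0.10, adjusted p = 0.0271), and by 0.33 ± 0.07 averaged over the UVB states (adjusted p = 0.0290). Among irradiated cultures the betaine difference was 0.09 ± 0.10 (adjusted p = 0.689; 95% interval −0.13 to 0.31). UVB alone gave 0.23 ± 0.10 (adjusted p = 0.274) and UVB on betaine −0.26 ± 0.10 (adjusted p = 0.175), with betaine + UVB arrays all below the betaine arrays.

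The Jun call with betaine alone was lost without control A (adjusted p = 0.111), control B (0.0765), betaine A (0.0647) or betaine B (0.105), and in a fit of the 2 groups alone (0.186). With the authors' processed values its change was 0.36, and the call held. The averaged call was lost without any of 7 arrays (control A or B, UVB A or B, betaine + UVB A, B or C), with adjusted p up to 0.0764.

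Fos, the partner of Jun and the textbook early response gene, passed against control in both irradiated groups. Its log2 signal was 8.24, 8.33 and 8.19 with betaine + UVB, 8.01, 7.80 and 8.91 with UVB, 7.94, 8.04 and 7.70 with betaine and 7.10, 6.75 and 7.16 in control. No treated array overlapped the control arrays, all betaine + UVB arrays lay above all betaine arrays, and of the UVB arrays A and B lay within the betaine range and C above all others. Fos rose 2.36-fold with UVB alone (1.24 ± 0.23, adjusted p = 0.00895) and 2.38-fold with betaine + UVB against control (1.25 ± 0.23, adjusted p = 0.00769). Betaine alone gave 0.89 ± 0.23 without passing (adjusted p = 0.131). Between betaine + UVB and UVB the difference was 0.01 ± 0.23 (95% interval −0.49 to 0.52), and between betaine + UVB and betaine 0.36 ± 0.23 (adjusted p = 0.423).

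The raw intensity of the Fos probe averaged 352 ± 24.8 with betaine + UVB, 366 ± 118 with UVB, 312 ± 50.7 with betaine and 206 ± 14.9 in control (SD, n = 3 each), and the size of its change differed with the handling of background. The UVB rise was 0.93 without background correction and 0.56 with the authors' processed values, and it was called in both. The call also held with each array left out in turn, the highest adjusted p being 0.0473. Without UVB C the rise was 0.90 ± 0.14 (adjusted p = 0.00608), and in that fit the change with betaine alone (0.89) passed too (adjusted p = 0.0140), as it did with array weights (0.85, adjusted p = 0.0153). The averaged betaine effect of Fos, 0.45 ± 0.16 (adjusted p = 0.167), likewise passed without UVB C (0.62, adjusted p = 0.00889) and with array weights (0.53, 0.0162).

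Ier3, which encodes the immediate early response protein IEX-1, rose with UVB alone and on average over the betaine states. The log2 signals were 11.29, 11.35 and 11.37 with betaine + UVB, 10.99, 11.13 and 11.76 with UVB, 10.78, 10.83 and 10.72 with betaine and 10.56, 10.44 and 10.59 in control. All 6 irradiated cultures lay above all 6 that were not irradiated, and UVB C was the highest. Ier3 rose 1.70-fold with UVB alone (0.76 ± 0.16, adjusted p = 0.0162), 1.75-fold with betaine + UVB against control (0.80 ± 0.16, adjusted p = 0.0106) and by 0.66 ± 0.11 averaged over the betaine states (adjusted p = 0.00207). In betaine-grown cultures the UVB change was 0.56 ± 0.16 (adjusted p = 0.0597). Betaine alone gave 0.25 ± 0.16 (adjusted p = 0.594) and betaine among irradiated cultures 0.04 ± 0.16 (95% interval −0.30 to 0.39).

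Without UVB C the UVB rise of Ier3 was 0.53 ± 0.09 (adjusted p = 0.00842), and the UVB change in betaine-grown cultures then passed (0.56, adjusted p = 0.00144). It also passed without UVB A (0.0397). Without control B the call for UVB alone was lost (adjusted p = 0.0683), as was that for betaine + UVB against control (0.0502). A fit of the UVB and control groups alone gave an adjusted p of 0.0765.

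Myc, the growth regulator, rose with UVB, with and without betaine, and had its highest signals with both treatments. Its log2 signal was 12.29, 12.33 and 12.26 with betaine + UVB, 11.97, 11.95 and 12.06 with UVB, 11.77, 11.88 and 11.96 with betaine and 11.73, 11.47 and 11.69 in control. The betaine + UVB arrays stood above all others and the control arrays below all others, while the UVB and the betaine arrays overlapped at their margin. Betaine + UVB cultures were 1.58-fold above control (0.66 ± 0.09, adjusted p = 0.00120), the firmest of the Myc calls, held without any 1 array and under each of the 10 other settings tried. UVB raised Myc by 0.36 ± 0.09 without betaine (adjusted p = 0.0421) and by 0.42 ± 0.09 with it (adjusted p = 0.0158). Betaine gave 0.24 ± 0.09 without UVB (adjusted p = 0.323) and 0.30 ± 0.09 with it (adjusted p = 0.147). The betaine change passed when averaged over the UVB states (0.27 ± 0.06, adjusted p = 0.0420). Among irradiated cultures it passed with array weights (0.32, adjusted p = 0.0260).

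The small changes of Myc were sensitive to the choice of arrays. The call for UVB without betaine held in 2 of the 12 fits with 1 array left out, those without control A or betaine C, and otherwise had adjusted p of up to 0.139 (without UVB C). That for UVB in betaine-grown cultures was lost without betaine A (0.0727), betaine B (0.0502), or betaine + UVB A (0.0570), B (0.0635) or C (0.0523). The averaged betaine call held in 1 of the 12, without control A. With arrays scaled by their medians the change was 0.26 for UVB without betaine (adjusted p = 0.134) and 0.235 for betaine averaged over the UVB states (0.102). Averaged over the betaine states, the UVB rise of 0.39 ± 0.06 (adjusted p = 0.00167) held throughout.

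Junb and Jund, the other Jun proteins, did not pass in any of these comparisons. JUNB often restrains Jun-driven growth, and its log2 signal was 12.73, 12.82 and 12.82 with betaine + UVB, 12.60, 12.67 and 13.10 with UVB, 12.71, 12.59 and 12.76 with betaine and 12.51, 12.30 and 12.40 in control. The control arrays were the lowest of all 12. Differences from control were 0.38 ± 0.12 with betaine + UVB (adjusted p = 0.102), 0.39 ± 0.12 with UVB (0.112) and 0.28 ± 0.12 with betaine (0.410). The difference of betaine + UVB from control passed without UVB C (adjusted p = 0.0236), with array weights (0.0221), with a variance trend (0.0472) and in a fit of the 2 groups (0.0495). The averaged UVB effect of Junb, 0.24 ± 0.09 (adjusted p = 0.103), passed with a variance trend (0.0483).

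Jund is the Jun gene known for steady expression in resting cells. Its log2 signal was 12.11, 12.17 and 12.23 with betaine + UVB, 12.19, 12.17 and 12.23 with UVB, 12.29, 12.45 and 12.05 with betaine and 12.27, 12.52 and 12.19 in control. All 4 groups overlapped. The difference from control was −0.16 ± 0.11 with betaine + UVB, −0.13 ± 0.11 with UVB and −0.07 ± 0.11 with betaine, and the 95% intervals ran from −0.40 to 0.09, from −0.38 to 0.11 and from −0.31 to 0.18. Fosb, a Fos protein gene of strong transient induction, stayed in the range of the negative controls, with raw intensities of 65.4 to 72.6 with betaine + UVB, 59.0 to 87.9 with UVB, 73.6 to 83.7 with betaine and 69.9 to 76.5 in control, so no change is given for it. Its lowest detection p-value, 0.268, was again that of UVB C.

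Whether betaine altered the UVB response was tested by the interaction. In limma 0 of 7 members and 0 of 10937 genes (0 percent) passed, while 3 members and 880 genes had an unadjusted p under 0.05. Those 3 were Fos (−0.87 ± 0.33, adjusted p = 0.587), Jun (−0.49 ± 0.14, 0.574) and Egr1 (−0.39 ± 0.16, 0.601), each with a combined change below the sum of the single ones. Myc had 0.06 ± 0.13 (95% interval −0.22 to 0.34), so its combined change was close to the sum. Without UVB C the values were −0.54 for Fos, −0.41 for Jun and −0.30 for Egr1, and the value of Ier3 moved to 0.03, against −0.20 with all arrays. The plot of averaged effects places the members by these 2 quantities: Egr1 and Jun lie along the betaine axis, Ier3 along the UVB axis, and Fos and Myc between them.

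**Figure D3:**
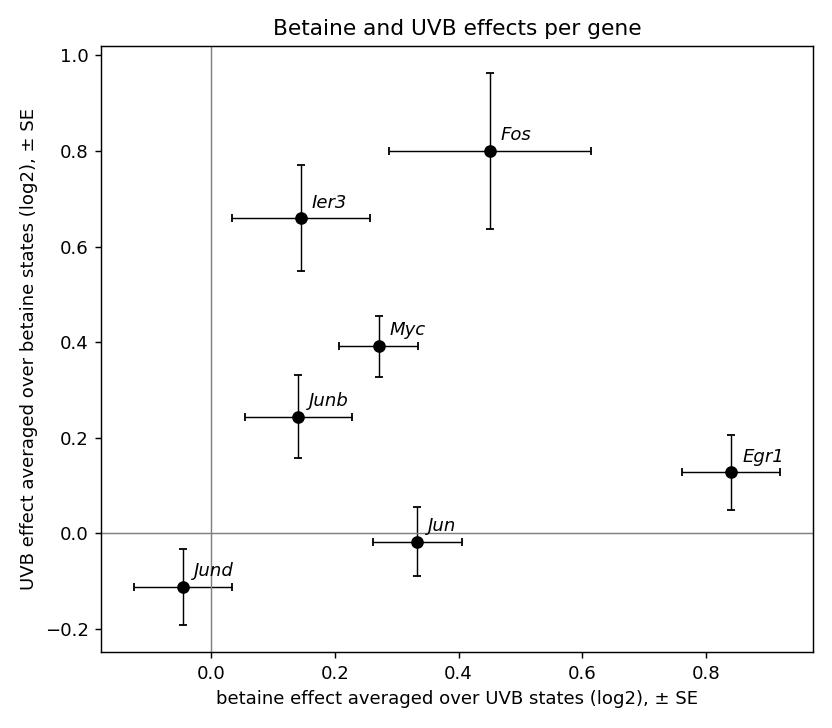
Effect of UVB averaged over the betaine states (vertical axis, log2, ± SE) against the effect of betaine averaged over the UVB states (horizontal axis, log2, ± SE) for the 7 detected factors, from limma over 12 arrays. Egr1 has the largest betaine effect (0.84) and Fos the largest UVB effect (0.80) of the 7 here, while Ier3 exceeds Fos without background correction (0.638 against 0.61) and with the authors' processed values (0.616 against 0.368); Jund lies near 0 on both.

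The spread within groups was itself shared by several members. UVB C, singled out after its values were seen, was the highest of the 3 UVB arrays for 7 of 7 members, while it was the highest for 38.4 percent of all tested genes and for 11 of 22 other early genes. Of the betaine arrays, B was the highest for 5 of 7 members (33.4 percent of all genes) and C for 15 of 22 other early genes (40 percent). Control B was the highest control array for 15 of those 22 (34.5 percent). The deviation of UVB C from the UVB mean was 0.67 log2 units for Fos, 0.47 for Ier3, 0.31 for Junb, 0.18 for Egr1 and 0.16 for Jun, against 0.07 for Myc and 0.03 for Jund. The betaine + UVB arrays, in contrast, had SDs of 0.03 (Myc) to 0.07 (Fos) over the 7 members. In control, B was the lowest array for Fos, Ier3, Junb and Myc and the highest for Egr1 and Jund. Whether these differences between cultures are biological or arose in handling was not tested. Over the 12 arrays the signals of Fos correlated with those of Ier3 (Pearson r = 0.92) and Junb (0.92), and those of Egr1 with Jun (0.87), where the points share groups. After removing group means r was 0.91 for Fos and Ier3, 0.77 for Fos and Junb and 0.74 for Egr1 and Jun. Over all pairs of the 7 members it ran from −0.63 (Jund and Myc) to 0.91. The deviation of UVB C was the largest of all arrays for Fos, Ier3 and Junb, and r without that array was not computed. Fos and Junb deviated in opposite directions on betaine B (0.148 and −0.098) and betaine C (−0.192 and 0.072).

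**Figure D4:**
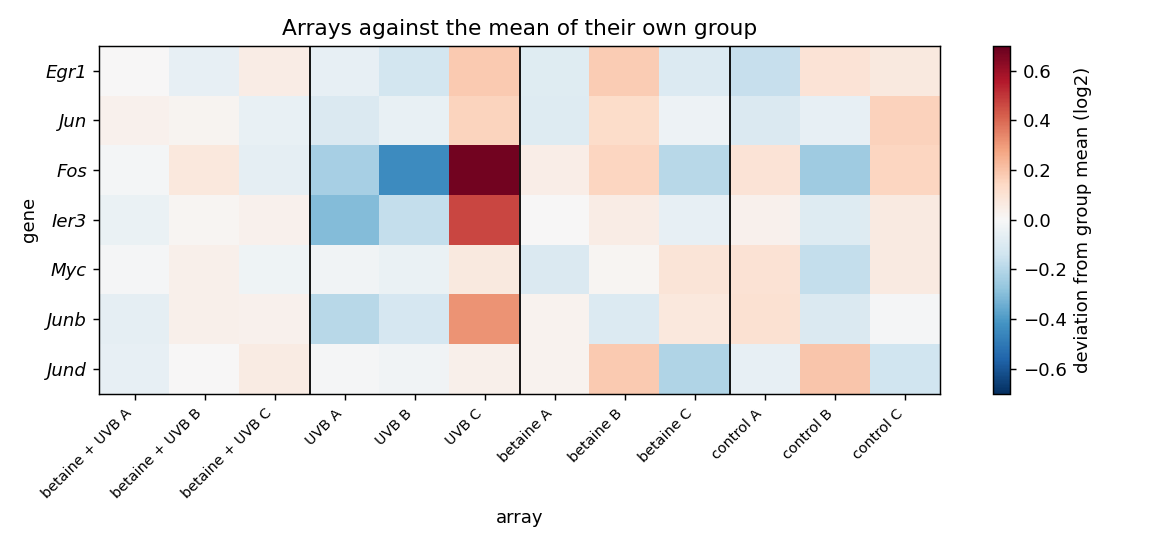
Deviation of each array from the mean of its own group (colour, log2) for the 7 detected factors (rows) on the 12 arrays (columns). UVB C is the darkest column, at 0.67 for Fos and 0.47 for Ier3, and the 3 betaine + UVB arrays are nearly uniform.

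Genes that act with these factors were read from the same fit, for lists chosen with earlier results of these arrays known. Over both betaine states UVB raised 6.08 percent of all genes and lowered 5.16 percent, and over both UVB states betaine raised 1.66 percent and lowered 1.58 percent. Of 11 measured bZIP proteins that pair or compete with Fos and Jun, 2 rose after UVB and 0 fell, with a list median of −0.05 against −0.01 for all genes. Jdp2, a Jun dimerization protein that represses AP-1, rose by 0.60 ± 0.15 (adjusted p = 0.0258). With betaine 1 rose, Maf (0.61 ± 0.12, adjusted p = 0.0177), and 0 fell.

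Among 22 measured early genes outside the set, 0 passed as higher and 4 as lower after UVB: the matricellular protein genes Ccn1 (−0.42 ± 0.07) and Ccn2, Nr4a2 (−0.50 ± 0.08), an orphan nuclear receptor, and Ier5l (−0.44 ± 0.07). The list median was −0.09. With betaine 4 passed as higher, Id2 (0.53 ± 0.06), Id3 (0.49 ± 0.09), Ccn1 (0.41 ± 0.07) and Ccn2, of which the ID proteins block helix-loop-helix factors, and 1 fell, the kinase gene Sgk1 (−0.31 ± 0.06), with a list median of 0.18 against 0.00 for all genes. Ccn2 was not above background on any of the 3 UVB arrays, so no size is given for its averaged effects. On the normalized scale, against the lowest signal above background, its mean was at least 1.38-fold lower with UVB than in control (adjusted p = 0.132) and at least 1.715-fold higher with betaine + UVB than with UVB (adjusted p = 0.0941). These bounds are on the measured means and leave out the spread between arrays, and neither comparison passed.

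Of 12 measured brakes on MAP kinase signalling and on early transcripts, Dusp1, a MAP kinase phosphatase, fell after UVB (−0.38 ± 0.06, adjusted p = 0.00156) and 0 rose, and with betaine the receptor tyrosine kinase inhibitor Spry2 rose (0.52 ± 0.09, adjusted p = 0.0115) and 0 fell. Of 26 upstream kinases and factors 1 rose and 2 fell after UVB. Map2k6, an activator of p38, fell by 0.82 ± 0.07 (adjusted p = 1.10e-05), Egfr, the EGF receptor, fell by 0.29 ± 0.08, and Map2k1, the ERK activator MEK1, rose by 0.21 ± 0.06. With betaine Map2k6 (0.38 ± 0.07) and Braf (0.31 ± 0.07) rose and 0 fell.

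In the MYC network 1 of 9 measured genes rose after UVB, Mxd3 (0.47 ± 0.09), a MAX partner, and 2 fell, Mycl (−0.34 ± 0.09) and Mxd4 (−0.31 ± 0.08). With betaine 0 of 9 passed in limma and 1 had an unadjusted p under 0.05. Of 28 textbook MYC targets 5 rose after UVB and 0 fell, with a list median of 0.17 against −0.01 for all genes: Cdc25a (0.56 ± 0.10), a cell cycle phosphatase, Cad (0.51 ± 0.10) of pyrimidine synthesis, Srm (0.33 ± 0.08), the spermidine synthase, Ldha (0.24 ± 0.07) and Hspd1 (0.23 ± 0.07). With betaine 0 rose and 2 fell, the nucleolar Nop56 (−0.31 ± 0.07) and Ldha (−0.33 ± 0.07), with a median of −0.055 against 0.00.

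Targets ascribed to AP-1 and EGR1 moved in both directions. Of 21 AP-1 targets 2 rose and 2 fell after UVB: the wound keratin Krt16 (0.85 ± 0.20) and the matrix metalloprotease gene Mmp3 (0.59 ± 0.12) rose, and the metalloprotease genes Mmp10 (−1.29 ± 0.21) and Mmp9 (−0.56 ± 0.12) fell. With betaine Mmp3 (0.74 ± 0.12) and Mmp9 (0.52 ± 0.12) rose and 0 fell. Of 9 EGR1 targets Ptges, a prostaglandin E synthase, rose after UVB (0.54 ± 0.10). With betaine, where Egr1 itself rose, 0 of 9 passed in limma, 1 had an unadjusted p under 0.05 and the median was −0.03 against 0.00.

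Several of the list calls were lost with at least 1 array left out. For the averaged UVB effect these were Jdp2, Ccn2, Mycl, Mxd4, Egfr, Map2k1, Ldha and Hspd1, with adjusted p up to 0.120 (Hspd1, without betaine + UVB C). For the averaged betaine effect they were Maf, Sgk1, Braf, Mmp9, Nop56 and Ldha, with adjusted p up to 0.108 (Nop56, also without betaine + UVB C). Of these UVB calls, Ldha and Hspd1 held in 1 of the 12 fits, Map2k1 in 4, Mxd4 and Egfr in 5, and the rest in 8 or 9. Of the betaine calls, Mmp9 and Nop56 held in 2, Braf in 3, Ldha in 4, Sgk1 in 9 and Maf in 10. The UVB calls of Ldha and Hspd1 also ended without the detection filter and with every detected probe, and the betaine call of Mmp9 without the filter. Scaling arrays by their medians ended the UVB calls of Map2k1, Srm, Ldha and Hspd1 and the betaine calls of Braf, Mmp9 and Nop56, and the authors' processed values ended those of Ccn2 with UVB and Mmp9 with betaine. No list call turned sign in the settings other than leaving out an array. Signs in the fits with 1 array left out were not compared for list genes.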

How the data were processed

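The deposited non-normalized table gives, per the file headers, a signal intensity and a detection p-value for each probe on each array; per the labels' protocols, total RNA of each culture was amplified, biotinylated and hybridized to Illumina rat BeadChips. The authors' processed values, log2 by their range, were deposited normalized by a method not stated; the submitters' processing notes name R 2.11 and limma. From the intensities, neqc in limma 3.58.1 (R 4.3.3; offset 16, negative controls inferred from detection p-values) gave background-corrected, quantile-normalized log2 signals. A probe was kept (11255 were) if it had a gene name and was detected, at a p-value under 0.05, on 3 or more of 12 arrays; each gene is read from its probe of highest mean. Names were updated from RefSeq (GRCr8); of those in the text, Ccn1, Ccn2, Mycl, Nop56, Sgk1, Mt1, Atp5hl1, Emc9, Emc6 and Bola3 were reached through a synonym. All arrays entered 1 model with a mean per group and no pairing (eBayes; degrees of freedom 8 residual, 3.83 prior), tested on simulated data. Benjamini-Hochberg adjustment ran over 10937 genes in each comparison, and ± after a change gives its standard error. The number of arrays limits the precision (median standard error 0.12 for a comparison of 2 groups). Array medians ran from 95.9 to 118 before normalization. The members and lists were chosen with earlier results of these data known. All members are named; list genes are those that pass, at most 4 in each direction by size (and another MYC target, Hspd1, named after its value was seen), given for the averaged effects, except 2 that are not reported here; the 3 genes most like each called member are named by correlation. Alternatives were other normalizations, filters, probes, weights, moderation, pairing and arrays left out.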

Additional observations from a re-analysis of the deposited data

How the results depend on the processing

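Of 17 called changes of members, 12 were kept in every other setting that applied and 9 in each of the 12 fits with 1 array left out. All 17 had the same sign in every fit. The other settings numbered 10 for a comparison of 2 groups and 9 for an averaged effect, for which no fit of 2 groups was made. The fit of 2 groups kept 7 of the 11 calls it covered. With 1 array left out, the number of members called was 1 to 3 in UVB vs control, 1 to 3 in betaine vs control, 0 to 1 in betaine + UVB vs UVB, 0 to 2 in betaine + UVB vs betaine and 1 to 3 for betaine averaged over the UVB states. Fitting only the groups compared gave 1 in UVB vs control, 0 in betaine vs control (limma; 5 of 7 had an unadjusted p under 0.05 in that fit) and 2 in betaine + UVB vs betaine. The last count was also 2 without background correction, with array weights and with a variance trend, and array weights gave 2 in betaine + UVB vs UVB (Egr1 and Myc). No pairing by replicate letter was assumed. Correlations of same-letter deviations ran from −0.38 to 0.34, and for letter B from −0.02 to 0.29, with 3 of 12 arrays closest to their own letter. With the letter as a replicate block the Myc calls for UVB vs control (change 0.361, adjusted p = 0.0675) and for averaged betaine (0.271, 0.0657) were lost and the other 15 kept. Among list genes the block ended the averaged UVB calls of Map2k1, Ldha and Hspd1 and the averaged betaine calls of Nop56 and Ldha.

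Only uncalled changes turned sign. Fos in betaine + UVB vs UVB was −0.027 with the authors' processed values. Array weights gave 0.042 for Jund in betaine vs control, 0.080 for Junb in betaine + UVB vs UVB, −0.065 for the interaction of Jund and 0.010 for its averaged betaine effect. With 1 array left out, Jund ran from −0.159 to 0.037 in betaine vs control, −0.054 to 0.005 in betaine + UVB vs UVB, −0.195 to 0.001 in betaine + UVB vs betaine, −0.062 to 0.135 for the interaction and −0.092 to 0.006 for averaged betaine. In betaine + UVB vs UVB the ranges were −0.206 to 0.352 for Fos, −0.098 to 0.156 for Junb and −0.109 to 0.278 for Ier3. Egr1 ran from −0.115 to 0.021 in betaine + UVB vs betaine, the interaction of Ier3 from −0.357 to 0.031 and the averaged UVB effect of Jun from −0.056 to 0.024. The cause was not tested.

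Over all genes, 98 passed in betaine vs control, but 16 without control A or without betaine B, 19 without betaine A, 24 without control C, 7 in a fit of those 2 groups and 430 with array weights. In betaine + UVB vs UVB 97 passed, against 26 to 238 with 1 array left out, 318 in the fit of 2 groups and 762 with array weights. With 1 array left out the counts were 315 to 709 in UVB vs control (542 with all), 364 to 919 in betaine + UVB vs betaine (672), 317 to 904 in betaine + UVB vs control (565), 908 to 1516 for averaged UVB (1229) and 179 to 421 for averaged betaine (355). Array weights gave 830, 2212, 1562, 2383 and 1272 in these 5.

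Median scaling in place of quantile normalization moved the median change of all genes to −0.113 in UVB vs control and 0.106 for the interaction. The share of called genes that were higher was then 32.1 percent in UVB vs control (60 percent with quantile normalization), 16.2 in betaine vs control (40.8), 39.4 in betaine + UVB vs control (57.9) and 37.3 for averaged UVB (54.1). The 3 arrays per group and signals near background limit what was measured for Fosb and Ccn2. Some other list genes were also dim. Group means of raw intensity were 138 to 182.4 for Nr4a2, 152.4 to 172.5 for Mxd3 and 158.9 to 193.8 for Jdp2. They were 158.8 to 243.7 for Ccn1, 198.3 to 248.9 for Id3 and 198.4 to 256.5 for Cdc25a. The change of Fos, at 206 in control, differed in size with the handling of background. For these list genes that was not compared. A block for the chip was not run, as the files used here name no chip.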

Other observations

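Other genes followed the signal of these factors over the 12 arrays; the 3 most alike of 10937 are named for each member that passed in a comparison, by Pearson correlation of normalized log2 signals, as a description in which all points share the 4 groups. Fos was most like Atp5hl1 (r = 0.932), the elongation factor Eef2 (0.921) and Ier3 (0.917), the last being a member of the same set. Ier3 was most like Bola3 (0.964), the immunoproteasome subunit Psmb10 (0.959) and Emc6 (0.949). Jun was most like Dnah3, Fmr1nb and Klf10 (each 0.89), of which Klf10 is an early growth response factor of the Krüppel-like family. Egr1 was most like Emc9 (0.923), the inflammatory caspase Casp1 (0.909) and Sdhaf4 (0.895). Myc was most like the RNA-binding protein gene Taf15 (0.955), the metallothionein Mt1 (0.953) and RGD1306811 (0.950).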
